A study of Mus musculus with 8 samples.

Results

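The livers of mice that drank sodium arsenite were compared with the livers of mice that drank plain water, over a low-fat and a high-fat diet together. The members are the transcript clusters of the array (its unit for a gene) that carry a gene symbol, 23410 of 35556 clusters in all. Of these, 21789 carry 1 symbol and stand for 19938 genes, with the brightest cluster taken for each gene, and 11963 genes with a mean signal above 6.97 on the log2 scale were tested. The mice were male C57BL/6J. The groups were LFD+As (low-fat diet, 13% of calories as fat, with arsenite), LFD (the same diet with plain water), HFD+As (high-fat diet, 42% of calories as fat, with arsenite) and HFD (the same diet with plain water). Arsenite was given in deionized water at 3 mg of inorganic arsenic per litre, and the plain-water groups drank deionized water without it. The protocols give 10 weeks of exposure and the source label gives 90 days. Each group had 10 mice, and RNA of 5 mice was pooled for each array, so that each group has 2 arrays, called 1 and 2, and 4 arsenite arrays stand against 4 plain-water arrays. A pool averages its mice, so the p-values rest on the spread from pool to pool and not on that from mouse to mouse. Nothing in the labels gives the arsenic reached in the liver.

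Inorganic arsenic enters hepatocytes through aquaglyceroporins such as Aqp9 and through carriers, and is methylated by As3mt with S-adenosylmethionine as the methyl donor. Trivalent arsenic binds thiol groups of proteins, and is known to induce metallothioneins, heat shock proteins, haem oxygenase and the NRF2-driven antioxidant genes in exposed cells. The liver is also where dietary carbohydrate is turned into fatty acids, under the transcription factors Srebf1 and Mlxipl, and it answers growth hormone and interferon signals with large gene programmes.

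The 8 arrays were alike in their overall signal, with medians between 7.08 and 7.18. Signals of all 35556 clusters correlated between the 2 arrays of a group at r of 0.983 (LFD) to 0.991 (LFD+As). Arrays of different groups correlated at 0.974 to 0.991, so arrays of a group were not always the most alike. These values are a description across clusters, which are not independent replicates. On the first principal component, which held 49.95% of the variance, the HFD+As arrays stood at 25.3 and 18.3 and the other 6 between -15.1 and 4.70. The HFD+As pair therefore stands apart, and arsenite effects are given for each diet wherever the diets differ. Deviations from the gene mean were also related to how long a stretch of genome a gene covers (its span, introns included), with rank correlations of -0.454 and -0.293 in HFD+As 1 and 2 and of -0.136 to 0.347 in the other arrays. The arsenite effect over both diets had a rank correlation of -0.344 with span, made up of 0.0095 on the low-fat and -0.399 on the high-fat diet. Whether span had a part in single results was not tested beyond the values given after its trend was removed. Hepatocyte markers had a summed signal of 17.15 to 17.26 in arsenite arrays and 17.18 to 17.28 in plain-water arrays (log2).

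Arsenite changed 2 genes in the same way over both diets in the fit with diet as covariate (limma, Benjamini-Hochberg adjusted p under 0.05). Nat8f5, a member of the N-acetyltransferase 8 family, was higher, and Dhx58, which encodes the RNA helicase LGP2 of the antiviral RIG-I-like pathway, was lower. These 2 calls are 0.0167% of the genes tested, 0.00836% in each direction. Without adjustment, 198 genes were higher (1.66%) and 1136 lower (9.5%) at p under 0.05. The median effect over all tested genes was -0.06 and 28.3% of genes lay above 0, so small negative values are the background against which a gene list has to be read. This background depended on scaling. The share above 0 was 43.2% after median centring, 50.29% after quantile normalization and 51.07% with the span trend removed. It also depended on the diet. On the low-fat diet alone the median of all tested genes was -0.01, with 47.46% above 0. On the high-fat diet alone it was -0.13, with 27.66% above 0, and list values within a diet have to be read against these. Over both diets only Mt2 was higher by at least 1 log2 unit, and Socs2, Chrna4 and Cyp2b9 were lower by that much, none of them past the threshold. Cyp2b9 reached the mean filter only through its LFD pools.

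Nat8f5 had log2 signals of 10.45 and 10.39 in LFD+As livers, against 9.68 and 9.58 in LFD livers. It had 10.37 and 10.33 in HFD+As livers, against 9.47 and 9.85 in HFD livers. All 4 arsenite pools lay above all 4 plain-water pools, as in 0.41% of the tested genes. The rise was 0.74 ± 0.09 (log2, SE, adjusted p = 0.0449 by limma), with 0.79 on the low-fat and 0.69 on the high-fat diet, and the diet itself moved the gene by -0.02. Its relative Nat8, which acetylates cysteine conjugates in the mercapturate pathway, had 9.25 and 9.45 in LFD+As, 9.04 and 8.83 in LFD, 9.66 and 9.06 in HFD+As, and 8.48 and 8.44 in HFD livers. The arsenite pools of Nat8 all lay above the plain-water pools, by a small margin, and the difference of 0.66 did not pass (adjusted p = 0.212, limma). Probes of such close relatives can bind each other's transcripts, so the 2 genes are not independent readings.

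Dhx58 had 8.15 and 8.23 in LFD+As livers, against 8.82 and 8.65 in LFD livers. It had 8.22 and 8.19 in HFD+As livers, against 8.90 and 8.82 in HFD livers. The 4 arsenite pools lay close together and all below the plain-water pools, as in 2.21% of the tested genes. The change was -0.60 ± 0.08 (SE, adjusted p = 0.0449, limma), with -0.55 on the low-fat and -0.66 on the high-fat diet, and the diet effect was 0.07. With 1 array left out, the effect kept its size but not its call. Nat8f5 then lay between 0.68 and 0.83 and passed without HFD 2 and without LFD+As 2, and Dhx58 lay between -0.65 and -0.58 and passed only without LFD+As 2. Neither passed when the dim genes were tested too (adjusted p = 0.0920 for both) or when every cluster was tested (0.113 for both), and limma called 0 genes in either, with 1663 and 1885 at an unadjusted p under 0.05. The whole count was 49 without LFD+As 2 (11 higher, 38 lower, both genes among them), 1 without HFD 2, and 0 without any other array. Scaling also moved the split, with 3 genes higher and 1 lower after quantile normalization, 2 higher and 0 lower after median centring, and 2 higher and 1 lower once the trend with span was removed.

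A fit with 1 mean per group, which takes the differences between the diets' responses out of the residual spread, called 68 genes (0.568%) for the average of both diets, 15 higher (0.125%) and 53 lower (0.443%). It called the same 2 genes, with adjusted p of 0.00841 for Nat8f5 and 0.00925 for Dhx58. Of the 68, 48 (70.59%) had arsenite pools separate from plain water on the same side in both diets, against 8.52% of all genes. In the contrasts of single diets, 58 of the 68 (85.29%) also passed in HFD+As against HFD, where 3.63% of all genes passed, and 5 (7.35%) in LFD+As against LFD, where 0.0669% did. These contrasts use the same arrays as the average. For many genes of this set the values on each diet or in each pool are given.

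**Figure D1:**
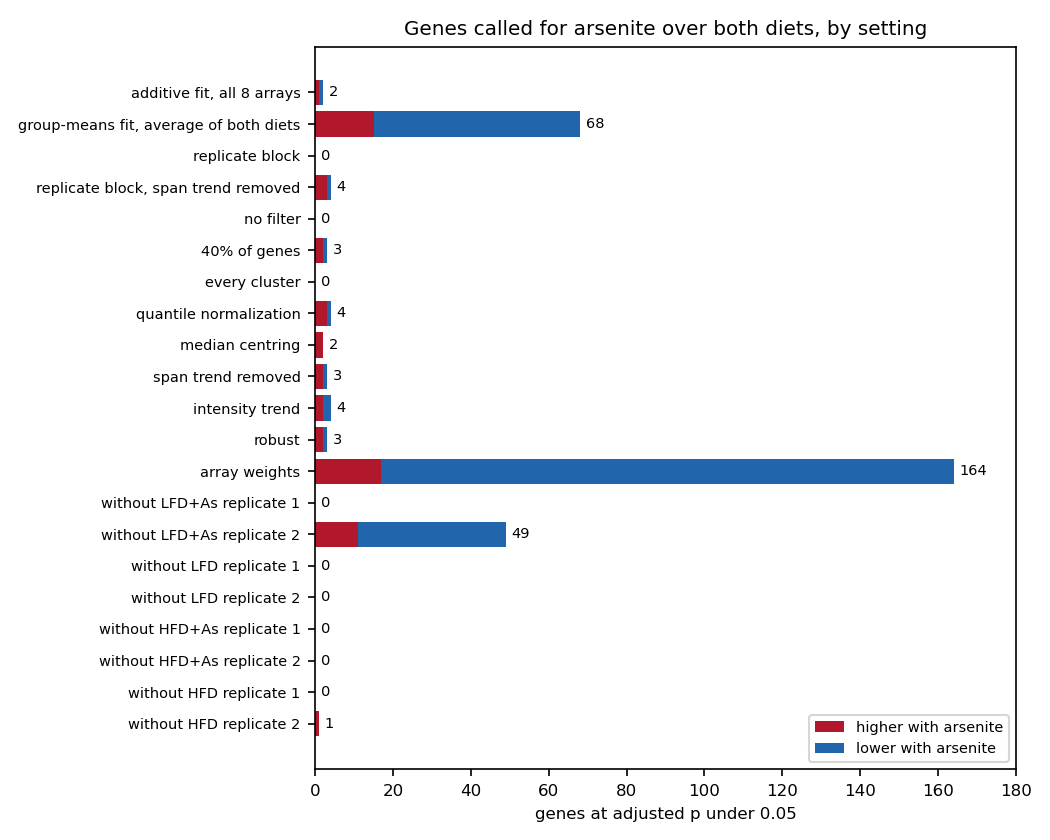
Number of genes past an adjusted p of 0.05 for arsenite over both diets (x axis) under each processing setting (y axis), split into genes higher (red) and lower (blue) with arsenite. The count is 2 with all 8 arrays and diet as covariate, 68 with 1 mean per group, 164 with arrays weighted, 49 without LFD+As 2 and at most 4 elsewhere.

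Retsat, Hspb1, Fabp2, Cyp4a14, Aox1, Hsd17b10 and Nat8 had the smallest p on the higher side among the genes that did not pass. Retsat, which saturates retinol, had 12.81 and 12.43 in LFD+As against 11.96 and 11.74 in LFD livers, and 12.66 and 12.82 in HFD+As against 12.13 and 12.00 in HFD livers. Its 4 arsenite pools all lay above the plain-water pools, and the difference was 0.72 ± 0.10 (SE, adjusted p = 0.0575 by limma, and 0.0103 with 1 mean per group). Fabp2, a carrier of fatty acids best known from the intestine, had 11.12 and 11.14 in LFD+As against 10.29 and 10.01 in LFD livers, and 11.41 and 11.74 in HFD+As against 11.16 and 11.09 in HFD livers. It was separate within each diet, with 0.98 on the low-fat and 0.45 on the high-fat diet, while LFD+As overlapped HFD (adjusted p = 0.173). Cyp4a14, an omega-hydroxylase of fatty acids, differed by 0.74 (adjusted p = 0.201), Aox1, aldehyde oxidase, by 0.56 (0.201) and Hsd17b10, a mitochondrial dehydrogenase, by 0.50 (0.212).

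Hspb1, a small heat shock protein, had 10.33 and 9.65 in LFD+As against 9.15 and 9.06 in LFD livers. It had 10.74 and 10.49 in HFD+As against 9.87 and 9.43 in HFD livers. The pools were separate in both diets by nearly the same amount (0.88 and 0.97), and LFD+As 2 overlapped the HFD livers. The difference over both diets was 0.92 ± 0.14 (SE, adjusted p = 0.0978, limma), and 0.0146 with 1 mean per group. Its promoter is shown because the heat shock element, the site of heat shock factors, is the textbook route to this gene. RefSeq places it on GRCm38.p6 at chr5:135887669-135887968 on the plus strand, 250 bases before to 50 after the start, and the capitals mark the letters GAANNTTC, read on both strands.
Hspb1: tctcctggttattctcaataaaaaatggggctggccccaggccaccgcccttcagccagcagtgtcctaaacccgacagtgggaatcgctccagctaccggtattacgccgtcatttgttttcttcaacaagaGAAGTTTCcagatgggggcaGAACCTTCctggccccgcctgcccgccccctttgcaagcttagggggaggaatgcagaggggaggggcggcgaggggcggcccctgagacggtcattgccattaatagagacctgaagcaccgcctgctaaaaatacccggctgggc
The 2 matches lie at -117 to -110 and -97 to -90, counted from the first transcribed base as 0. The letters occur in 7.86% of the 32851 mouse promoters of that table, in 6.95% of the tested genes with a promoter there and in 9 of 18 metal and heat shock genes with a promoter there (50.0%). A match is a description of the letters and says nothing of binding in these livers.

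The genes with the smallest p on the lower side were led by Fam81a (-0.65 ± 0.10, SE, adjusted p = 0.0699, limma). Socs2, a feedback inhibitor of growth hormone signalling, had 8.51 and 7.82 in LFD+As livers, against 10.14 and 10.27 in LFD livers. It had 8.69 and 8.47 in HFD+As livers, against 9.45 and 9.19 in HFD livers. All arsenite pools lay below all plain-water pools, yet the 2 diets differed in size, with -2.04 on the low-fat and -0.74 on the high-fat diet. The effect over both diets of -1.39 ± 0.23 (SE) missed the threshold (adjusted p = 0.154, limma), while 1 mean per group gave 0.000854, and the test of the difference between the diets gave 0.117. Gabbr2, a subunit of the GABA-B receptor, differed by -0.66 (adjusted p = 0.183), Srebf1 by -0.56 (0.199), Rnf213, a ubiquitin ligase, by -0.49 (0.201), Foxa1, a pioneer factor of liver genes, by -0.47 (0.201) and Gbp11, an interferon-inducible guanylate-binding protein, by -0.76 (0.201). Each of these was separate from plain water on the lower side in both diets.

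**Figure D2:**
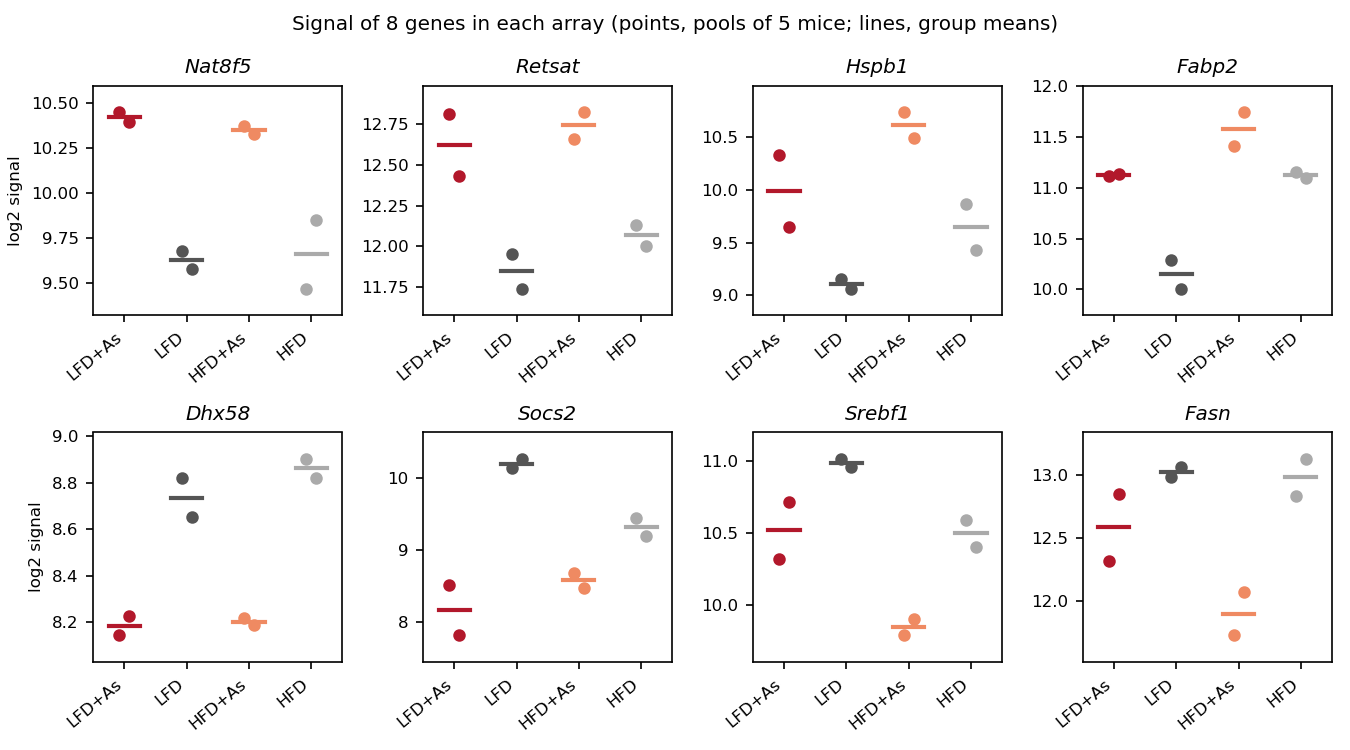
Log2 signal (y axis) of 8 genes in each array, with a point per pool of 5 mice and a line at the mean of each group, LFD+As, LFD, HFD+As and HFD from left to right. Nat8f5 arsenite pools sit between 10.33 and 10.45 and plain-water pools between 9.47 and 9.85, Dhx58 between 8.15 and 8.23 against 8.65 and 8.90, and Fasn has LFD+As 2 at 12.85, close to the LFD pools.

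The genes that take up, methylate and export arsenic showed no call. As3mt, the arsenic methyltransferase, had 10.96 and 10.71 in LFD+As, 10.76 and 10.55 in LFD, 10.28 and 10.72 in HFD+As, and 10.65 and 10.94 in HFD livers. The groups overlapped in both diets and the difference was -0.06 ± 0.13 (SE, adjusted p = 0.888, limma), of opposite sign on the low-fat diet (0.18) and after removal of the span trend (0.03). Aqp9 differed by -0.18 ± 0.10 (SE, adjusted p = 0.489). Of 23 tested genes of arsenic methylation and one-carbon metabolism, 0 passed, 5 lay above 0 and the median was -0.06, equal to that of all genes. Among them Aldh1l1, which oxidizes formyl-tetrahydrofolate, differed by -0.31 and Gamt, which methylates guanidinoacetate to creatine, by -0.26. Of 13 uptake and efflux genes, 0 passed and the median was -0.04. The lowest were the phosphate transporters Slc34a2 (-0.56, adjusted p = 0.201, 0.0388 with 1 mean per group) and Slc20a2 (-0.30, adjusted p = 0.283), both separate on the lower side in both diets.

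Metallothioneins, which bind metals through their thiols, had higher signals with arsenite on the low-fat diet and were as bright on the high-fat diet without it. Mt2 had 13.24 and 11.09 in LFD+As livers, against 10.09 and 9.59 in LFD livers. It had 13.43 and 12.51 in HFD+As livers, against 12.74 and 12.78 in HFD livers. The LFD pools were the lowest of all 8 arrays, the low-fat groups did not overlap, and HFD+As and HFD overlapped. The difference was 2.33 on the low-fat and 0.21 on the high-fat diet, 1.27 ± 0.47 over both (SE, adjusted p = 0.415, limma). Mt1 followed with 1.41 and -0.11, and 0.65 over both (adjusted p = 0.515). The differences between the diets' responses did not pass either (-2.12 for Mt2, adjusted p = 0.252, and -1.52 for Mt1, 0.283), and probes of Mt1 and Mt2 may bind both transcripts. The Mt2 promoter is shown because it holds the cores of metal response elements, the sites of the metal sensor Mtf1, in the largest number among the named genes. RefSeq places it on GRCm38.p6 at chr8:94172368-94172667 on the plus strand, and the capitals mark TGCNCNC on both strands.
Mt2: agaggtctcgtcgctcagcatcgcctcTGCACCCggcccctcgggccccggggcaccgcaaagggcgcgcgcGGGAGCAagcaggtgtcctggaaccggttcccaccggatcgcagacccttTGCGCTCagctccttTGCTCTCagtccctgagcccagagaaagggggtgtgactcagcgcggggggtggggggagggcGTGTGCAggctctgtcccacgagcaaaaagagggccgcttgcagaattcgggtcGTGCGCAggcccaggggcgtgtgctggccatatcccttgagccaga
It holds 6 matches and the Mt1 promoter 3. The core is short and occurs in 51.0% of all promoters in the table and in 63.7% of the tested genes with a promoter there, and in 16 of the 18 metal and heat shock genes that have one (88.9%).

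The wider stress lists had no call and medians near 0 over both diets, above the -0.06 of all tested genes. At an unadjusted p under 0.05 (limma), 5 of 22 metal and heat shock genes were higher. So were 6 of 28 NRF2 and glutathione genes and 3 of 27 unfolded protein and integrated stress genes. In each of these lists 1 gene was lower, while 1.66% of all genes were higher and 9.5% lower. In the metal and heat shock list, 0 of 22 tested genes passed, 12 lay above 0 and the median was 0.03, with 0.25 on the low-fat and -0.15 on the high-fat diet. The medians of all tested genes were -0.01 on the low-fat and -0.13 on the high-fat diet. Hspe1, the mitochondrial co-chaperonin, differed by 0.34 (adjusted p = 0.357). Of 28 NRF2 and glutathione genes 0 passed, 17 lay above 0 and the median was 0.03. Nqo1, a quinone reductase and NRF2 target, had 7.79 and 7.42 in LFD+As, 7.82 and 7.20 in LFD, 7.83 and 9.03 in HFD+As, and 7.12 and 7.04 in HFD livers. HFD+As 2 stood more than 1 log2 unit above every other pool, and the difference of 0.72 did not pass (adjusted p = 0.422). Hmox1, haem oxygenase, differed by 0.17 (adjusted p = 0.580), with 0.35 on the low-fat and -0.02 on the high-fat diet. In the unfolded protein and integrated stress response, 0 of 27 passed and the median was 0.08, made of 0.28 on the low-fat and -0.05 on the high-fat diet. Creld2 and Sdf2l1, endoplasmic reticulum proteins induced on misfolding, were higher by 0.85 and 0.84 on the low-fat diet and by 0.07 and 0.14 on the high-fat diet.

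The 31 proteasome subunit genes all lay above 0, whereas 28.3% of tested genes did. None of them passed (0.00836% of all genes passed on the higher side), 14 had an unadjusted p under 0.05 on that side, against 1.66% of all genes, and the median was 0.21. On the low-fat diet the median was 0.10 with 31 above 0, and on the high-fat diet 0.23 with 30 above 0. The catalytic-core subunits Psma7 (0.56, adjusted p = 0.264, 0.0434 with 1 mean per group), Psma5 (0.44) and Psmb6 (0.35) led, and the members ranged down to 0.04 for Psma3. Psma7 differed by 0.28 on the low-fat diet, where the groups overlapped, and by 0.85 on the high-fat diet. The median deviation of the list from the gene means was 0.09 and -0.17 in LFD+As, -0.10 and -0.17 in LFD, 0.11 and 0.35 in HFD+As, and -0.06 and -0.01 in HFD. LFD+As 2 thus stood with the LFD pools, and HFD+As 2 stood highest. The median was 0.13 with 28 above 0 without HFD+As 2, 0.15 with 29 above 0 without LFD+As 1, and 0.24 with the span trend removed, where all 31 remained above 0. All 31 also lay above 0 after quantile normalization and after median centring, where 50.29% and 43.2% of all tested genes did.

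Genes of fatty acid synthesis formed the list with the lowest median. All 21 tested members lay below 0 over both diets, and they lay below 0 in each diet taken alone. None passed in the fit with diet as covariate (0.00836% of all genes passed on the lower side). On that side 19 of 21 had an unadjusted p under 0.05, against 9.5% of all genes. With 1 mean per group 11 passed, against 0.443% of all genes on the lower side. In the contrasts of single diets, 16 passed on the high-fat diet (3.63% of all genes) and 0 on the low-fat diet (0.0669%). The median was -0.51, with -0.23 on the low-fat and -0.79 on the high-fat diet, and 12 members had arsenite pools below plain water in both diets, as did 7.04% of all genes. The transcription factor Srebf1 had 10.32 and 10.71 in LFD+As against 11.01 and 10.96 in LFD livers, and 9.79 and 9.90 in HFD+As against 10.59 and 10.40 in HFD livers. The groups were separate in each diet, by -0.47 and -0.65, while LFD+As overlapped HFD. Mlxipl, the carbohydrate response factor ChREBP, differed by -0.40 (adjusted p = 0.353).

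Along the pathway from citrate to monounsaturated fat, each enzyme described here lay below 0 in both diets. Acly, which splits citrate into acetyl-CoA, differed by -0.84 ± 0.20 (SE, adjusted p = 0.235, 0.0299 with 1 mean per group), with -0.41 on the low-fat and -1.27 on the high-fat diet. Acss2, which makes acetyl-CoA from acetate, differed by -0.72 (-0.35 and -1.09). The carboxylases Acaca and Acacb, which make malonyl-CoA, differed by -0.61 (-0.38 and -0.85) and -0.80 (-0.21 and -1.39). On the low-fat diet the groups overlapped for Acly and Acacb and were separate for Acss2 and Acaca. Fasn, the synthase that builds palmitate, had 12.32 and 12.85 in LFD+As against 12.98 and 13.06 in LFD livers, and 11.72 and 12.07 in HFD+As against 12.83 and 13.13 in HFD livers. Its pools were separate in both diets (-0.44 and -1.08, and -0.76 ± 0.16 over both, adjusted p = 0.212, limma).

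Desaturases and elongases, which finish the chain, also lay below 0 in both diets. Scd1, the delta-9 desaturase, had 13.75 and 14.04 in LFD+As against 14.12 and 14.12 in LFD livers, and 13.14 and 12.97 in HFD+As against 14.12 and 14.07 in HFD livers. It differed by -0.23 on the low-fat and by -1.04 on the high-fat diet, where it passed (adjusted p = 0.00354, limma). Elovl5, an elongase of polyunsaturated fatty acids, differed by -0.09 and -1.13, and Fads1, the delta-5 desaturase, by -0.13 and -0.90. For Elovl5 and Fads1 the low-fat groups overlapped, with LFD+As 2 above both LFD pools. For none of these enzymes did the test of the difference between the diets pass, with adjusted p of 0.117 for Elovl5, 0.149 for Scd1 and 0.170 for Acacb and Fads1. In single arrays the list's median deviation was -0.14 and 0.25 in LFD+As, 0.26 and 0.27 in LFD, -0.65 and -0.47 in HFD+As, and 0.13 and 0.37 in HFD. The low-fat difference therefore rested on LFD+As 1, while both HFD+As pools lay far below every other pool. With 1 array left out the median ran between -0.66 and -0.43, and it was -0.46 with the span trend removed, after which all 21 stayed below 0.

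Neighbouring lipid pathways differed from this in size. Of 19 cholesterol synthesis genes 0 passed, 17 lay below 0 and the median was -0.20 (-0.03 on the low-fat and -0.32 on the high-fat diet). Sc5d, a late enzyme of sterol synthesis, differed by -0.35 (adjusted p = 0.235), and the list's median was -0.12 without HFD+As 1 and likewise without HFD 2. Of 27 genes of fatty acid oxidation and PPAR-alpha targets 0 passed, 16 lay above 0 and the median was 0.04. Its Cyp4a members were higher, mostly on the high-fat diet. Cyp4a14 had 13.93 and 13.49 in LFD+As, 13.35 and 13.03 in LFD, 13.71 and 13.96 in HFD+As, and 12.72 and 13.03 in HFD livers. Cyp4a31 and Cyp4a10 differed by 0.72 and 0.47 over both diets, and by 1.19 and 0.77 on the high-fat diet, where both had an adjusted p of 0.0307. The probes of these 3 genes may bind each other's transcripts. Ppargc1a, the coactivator of mitochondrial and fasting genes, differed by -0.37 (adjusted p = 0.402).

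Interferon-stimulated genes formed the list with the next lowest median. All 24 tested members lay below 0 over both diets, and Dhx58 alone passed (0.00836% of all genes passed on that side). On the lower side 14 had an unadjusted p under 0.05, against 9.5% of all genes, and 9 had arsenite pools below plain water in both diets, against 7.04% of all genes. The median was -0.33, with -0.30 on the low-fat diet (4 of 24 above 0) and -0.32 on the high-fat diet (0 above 0). After quantile normalization 2 members, and after median centring 1, lay above 0, with medians of -0.26 and -0.29. The list's median deviation was -0.24 and -0.06 in LFD+As, 0.30 and 0.06 in LFD, -0.06 and -0.24 in HFD+As, and 0.31 and -0.0043 in HFD. All arsenite pools lay below all plain-water pools, although HFD 2 came close to them, and the plain-water pools were the more spread. The members were chosen with results of these data known, so the joint sign is a description.

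By role, the sensors of viral RNA included Dhx58, Ddx58 (RIG-I), which differed by -0.36 (adjusted p = 0.264), and Ifih1 (MDA5), by -0.25. Among effectors, Rsad2, or viperin, had 7.85 and 7.91 in LFD+As against 8.85 and 8.39 in LFD livers, and 7.72 and 7.55 in HFD+As against 8.36 and 7.69 in HFD livers. It was separate on the low-fat diet (-0.74), and on the high-fat diet (-0.38) HFD 2 overlapped HFD+As. The 2 diets together gave -0.56 ± 0.15 (SE, adjusted p = 0.283, limma). Oasl2, of the oligoadenylate synthetase family, and Iigp1, an immunity-related GTPase, both differed by -0.51 (adjusted p = 0.283 and 0.268). Gbp11 had 7.82 and 8.22 in LFD+As against 9.07 and 9.13 in LFD livers, and 7.62 and 7.83 in HFD+As against 8.35 and 7.99 in HFD livers, and passed on the low-fat diet (-1.08). Of the regulators, Irf7, the transcription factor that amplifies type I interferon, differed by -0.39 (adjusted p = 0.419), and Usp18, the protease that removes ISG15, by -0.80 on the low-fat and -0.09 on the high-fat diet.

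Promoters of 2 members are shown for the interferon-stimulated response element, the site of interferon regulatory factors. The letters searched were GAAANNGAAA on both strands, and the capitals mark them. RefSeq places the promoter of Ddx58 on GRCm38.p6 at chr4:40239776-40240075 and that of Rsad2 at chr12:26456403-26456702, both on the minus strand and written in the direction of transcription.
Ddx58: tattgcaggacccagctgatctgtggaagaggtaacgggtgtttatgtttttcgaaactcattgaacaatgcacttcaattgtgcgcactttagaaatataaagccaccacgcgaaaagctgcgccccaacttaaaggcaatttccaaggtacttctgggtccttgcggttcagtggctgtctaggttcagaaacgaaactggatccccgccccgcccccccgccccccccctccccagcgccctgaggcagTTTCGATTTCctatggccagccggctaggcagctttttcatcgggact
Rsad2: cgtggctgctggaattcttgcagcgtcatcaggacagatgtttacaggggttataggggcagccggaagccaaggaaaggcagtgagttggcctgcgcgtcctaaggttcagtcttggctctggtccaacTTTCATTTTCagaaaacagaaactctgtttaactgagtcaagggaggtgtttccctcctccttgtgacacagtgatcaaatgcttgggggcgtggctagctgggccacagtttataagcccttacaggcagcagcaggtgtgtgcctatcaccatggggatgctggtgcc
The match lies at 2 to 11 in Ddx58 and at -120 to -111 in Rsad2. The element occurs in 3.44% of all promoters in the table, in 3.47% of the tested genes that have one and in 11 of the 18 list members that have one (61.1%). The table has no entry for Dhx58.

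**Figure D3:**
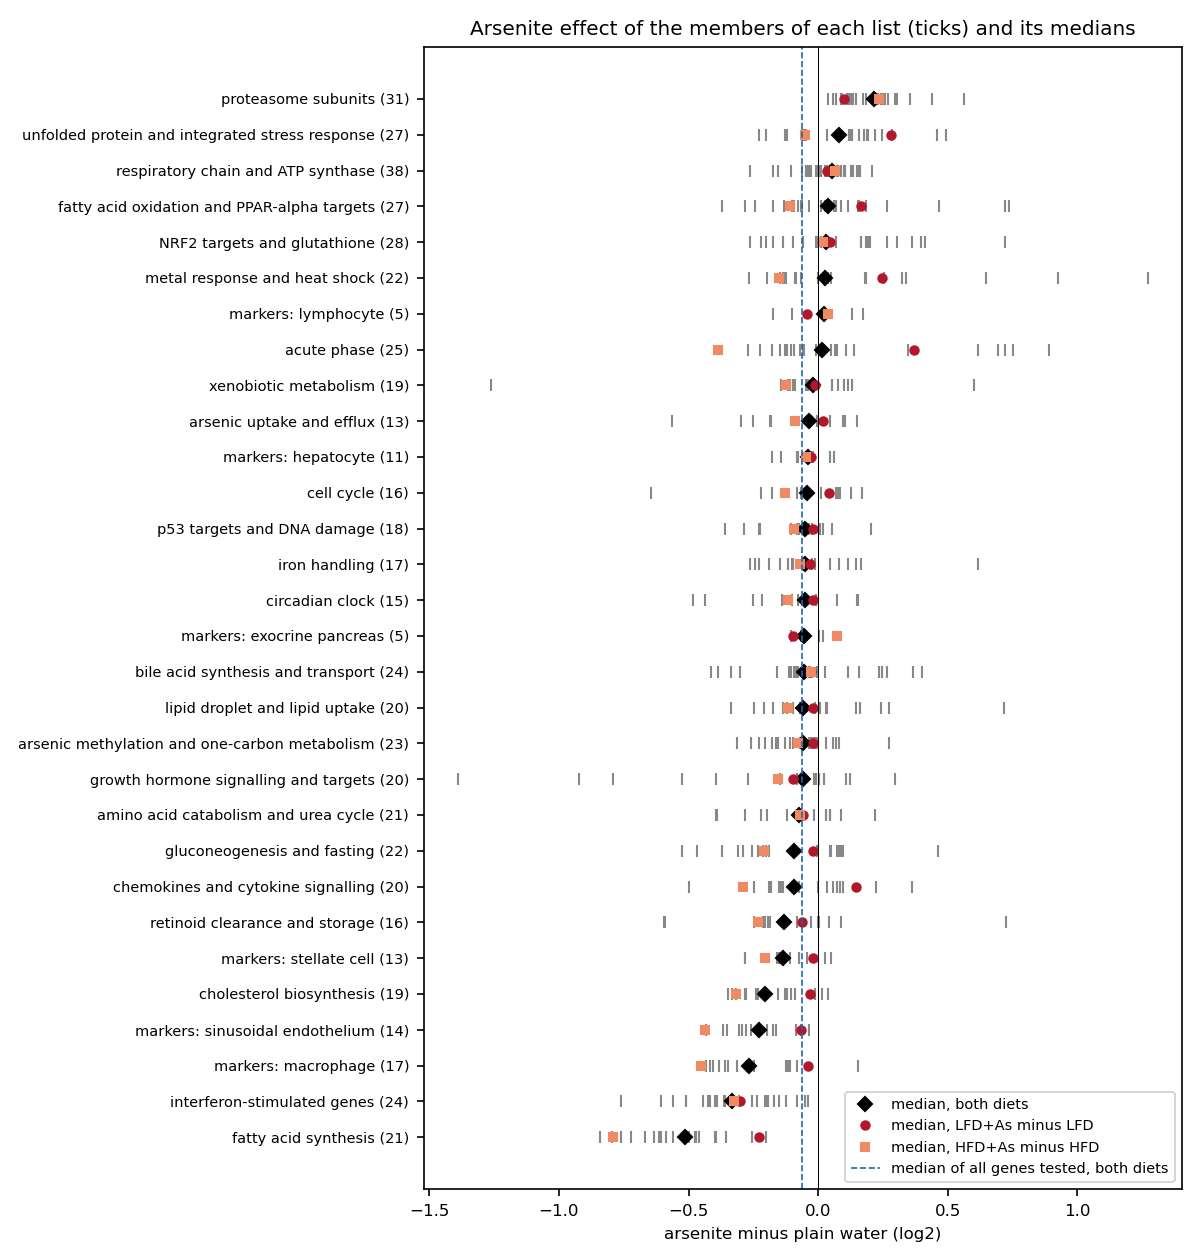
Arsenite effect over both diets (x axis, log2) of each tested member (ticks) of each gene list (y axis, number of members in brackets), with the median over both diets (diamond), in LFD+As minus LFD (circle) and in HFD+As minus HFD (square), and the median of all genes (dashed line at -0.06). Proteasome subunits stand highest at 0.21 and fatty acid synthesis lowest at -0.51, and the 2 diets' medians of the interferon-stimulated genes lie at -0.30 and -0.32.

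Hormone and drug pathways gave single genes rather than lists. Of 20 growth hormone signalling and target genes 0 passed and the median was -0.06. Besides Socs2, Stat5b, the transducer of the growth hormone receptor, differed by -0.39 (adjusted p = 0.340). Cyp2b9, a cytochrome P450 higher in female mouse liver, had 6.21 and 7.20 in LFD+As, 9.91 and 8.22 in LFD, 6.54 and 6.82 in HFD+As, and 6.82 and 6.88 in HFD livers. The LFD pools stood above all others, and the difference was -0.17 on the high-fat diet and -1.26 over both (adjusted p = 0.388, limma). Without the LFD pools its mean would not have reached the filter of 6.97, so a fall from LFD is partly built into its being tested. Nr1i3, the xenobiotic receptor CAR, had 10.14 and 9.71 in LFD+As, 9.73 and 9.32 in LFD, 10.37 and 10.57 in HFD+As, and 9.61 and 9.74 in HFD livers. It overlapped slightly on the low-fat diet, and the difference of 0.60 had an adjusted p of 0.212, and of 0.0410 with 1 mean per group. In the retinoid list, 0 of 16 passed and the median was -0.13, with Retsat at 0.72 and the retinol dehydrogenase Rdh11 at -0.59 (adjusted p = 0.235, 0.0359 with 1 mean per group). Rdh11 differed by -0.31 on the low-fat diet, where the groups overlapped, and by -0.88 on the high-fat diet.

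Other liver functions showed differences that did not pass. Of 24 bile acid genes the median was -0.05, and the bile salt export pump Abcb11 differed by -0.39 (adjusted p = 0.283) and the bile acid ligase Slc27a5 by -0.34. Of 21 genes of amino acid breakdown and ureagenesis the median was -0.07, with Hal, histidine ammonia lyase, and Prodh, proline dehydrogenase, at -0.40 and -0.39. Bhlhe40, a repressor in the circadian clock, differed by -0.48 (adjusted p = 0.235). Ccnd1, cyclin D1, had 9.55 and 9.84 in LFD+As, 9.96 and 9.83 in LFD, 9.28 and 9.03 in HFD+As, and 10.11 and 10.37 in HFD livers. It differed by -0.20 on the low-fat diet, where the groups overlapped, and by -1.09 on the high-fat diet, where it passed (adjusted p = 0.00354), and its average of -0.65 passed with 1 mean per group (0.0178). Hamp, the iron hormone hepcidin, differed by 0.62 (adjusted p = 0.412). The median of 38 respiratory chain and ATP synthase genes was 0.05, and 0 genes of these lists passed with diet as covariate.

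Markers of macrophages and of sinusoidal endothelium had negative medians with arsenite on the high-fat diet. Of 17 macrophage markers 0 passed, 16 lay below 0 and the median was -0.27, with -0.04 on the low-fat and -0.45 on the high-fat diet. Their summed log2 signal was 13.64 and 13.89 in LFD+As, 13.87 and 13.81 in LFD, 13.81 and 13.54 in HFD+As, and 14.13 and 14.02 in HFD. Adgre1 (F4/80) and Clec4f, of Kupffer cells, differed by -0.38 and -0.41. The list's median was -0.15 without HFD 1 and likewise without HFD+As 2. Of 14 markers of sinusoidal endothelium 0 passed, all lay below 0 (1 above 0 after quantile normalization, median centring or removal of the span trend) and the median was -0.23. Their summed signal was 13.37 and 13.50 in LFD+As, 13.60 and 13.42 in LFD, 13.31 and 13.23 in HFD+As, and 13.70 and 13.36 in HFD, and the median was -0.12 without HFD 1. The scavenger receptor Stab2 differed by -0.14 on the low-fat and -0.73 on the high-fat diet. In RNA of whole liver, fewer cells of a type and less RNA per cell cannot be told apart, and the part of these cells in the interferon and other lists was not tested.

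Fewer markers of other cells were bright enough to test. The medians were -0.13 for 13 stellate cell markers, 0.02 for 5 lymphocyte markers, 0.09 for 3 neutrophil markers, -0.07 for 3 cholangiocyte markers, -0.06 for 4 erythroid markers, 0.05 for 3 adipocyte markers and -0.05 for 5 pancreatic markers. On the high-fat diet alone the median of all tested genes was -0.13. Marker medians there were -0.21 for stellate cell, -0.10 for cholangiocyte and -0.07 for erythroid markers. They were 0.04 for lymphocyte, 0.25 for neutrophil, 0.18 for adipocyte and 0.07 for pancreatic markers. None of these markers passed with diet as covariate. The deposited table holds no detection calls, so whether the dim markers are present is unknown.

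**Figure D4:**
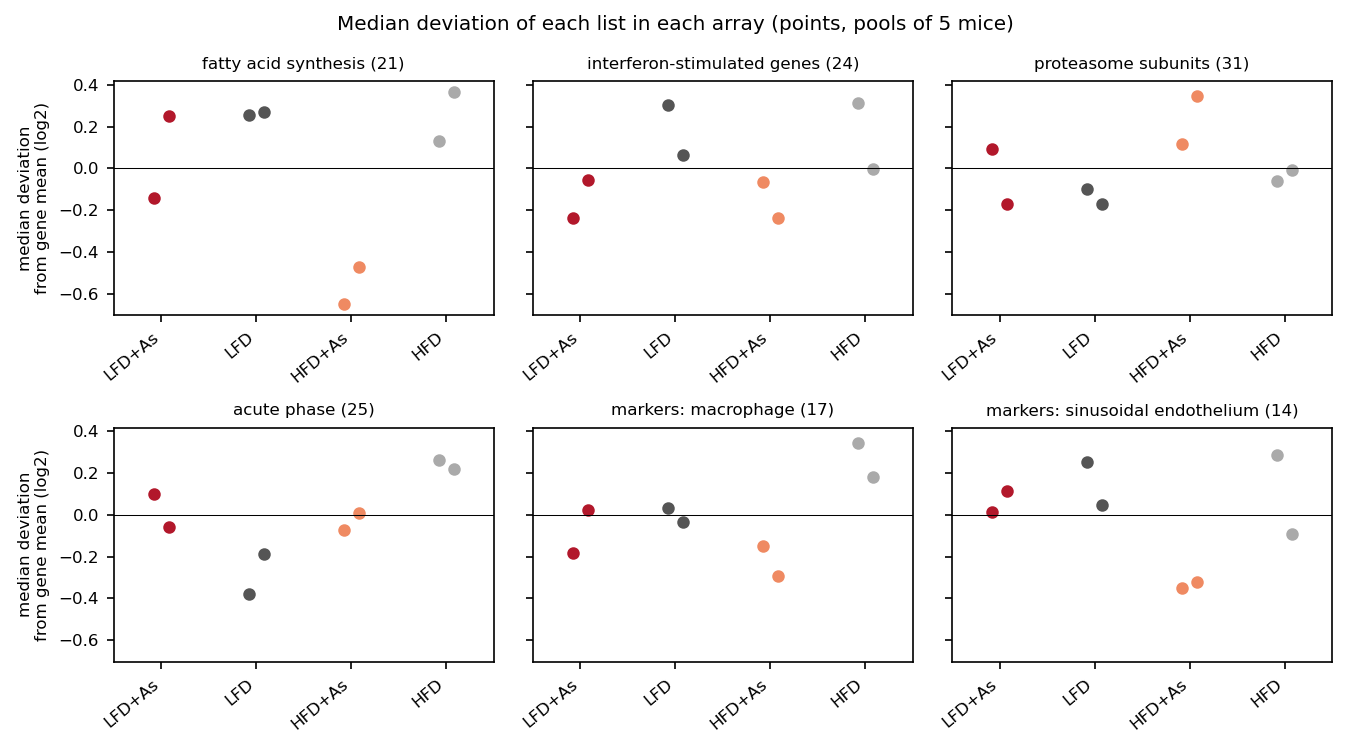
Median deviation from the gene mean (y axis, log2) of 6 gene lists in each array, with a point per pool, LFD+As, LFD, HFD+As and HFD from left to right and the number of genes in brackets. Fatty acid synthesis has both HFD+As pools at -0.65 and -0.47 and LFD+As 2 at 0.25 beside the LFD pools, and the interferon-stimulated genes have all arsenite pools at or below -0.06.

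The 2 diets' responses to arsenite were set beside each other without shared arrays. On the low-fat diet 8 genes passed (0.0669%) and on the high-fat diet 434 (3.63%), and 1 gene, Socs2, passed in both. Over all tested genes 49.59% had the same sign in both diets, and the effects had a Pearson correlation of 0.04 and a rank correlation of 0.0013 across genes, a description with no p. Of the 434 genes, 279 (64.29%) had the same sign on the low-fat diet, and of the 8 genes 6 had the same sign on the high-fat diet. The pools were separate on the higher side in both diets for 177 genes (1.48%), on the lower side in both for 842 (7.04%), and on opposite sides for 896 (7.49%).

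The acute phase genes, secreted by the liver in inflammation, lay mostly on opposite sides of 0 in the 2 diets. Lcn2, lipocalin 2, had 12.55 and 11.40 in LFD+As livers, against 9.05 and 10.28 in LFD livers. It had 11.57 and 12.06 in HFD+As livers, against 12.49 and 12.97 in HFD livers. The groups were separate in both diets and on opposite sides, with 2.31 on the low-fat diet, where it passed, and -0.92 on the high-fat diet. Saa1, serum amyloid A, had 10.07 and 8.66 in LFD+As against 5.04 and 7.51 in LFD livers, and 9.07 and 8.88 in HFD+As against 10.08 and 10.48 in HFD livers. Its differences were 3.09 and -1.30, and probes of the Saa genes may bind several of them. Over the 25 tested genes the median was 0.02, made of 0.37 with 24 above 0 on the low-fat and -0.39 with 2 above 0 on the high-fat diet. Of all tested genes, 47.46% lay above 0 on the low-fat and 27.66% on the high-fat diet.

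The test of the difference between the diets called 0 genes (0% of those tested) with limma, and 1659 genes (13.9%) had an unadjusted p under 0.05. The smallest adjusted p was 0.0591 (limma). Named genes with this value were Lcn2 (-3.22 ± 0.52, SE), Ppard, a lipid-sensing nuclear receptor (-1.78), and Atp11a, a phospholipid flippase (-1.43). Chrm3, a muscarinic receptor (-1.38), Slc10a2, the ileal bile acid transporter (-1.34), and Lrg1, a secreted glycoprotein of the acute phase (-1.27), shared it. With other filtering and scaling the adjusted p of these named genes was larger (limma). It was 0.203 without a filter on dim genes, 0.206 to 0.258 after quantile normalization and 0.12 to 0.183 with the span trend removed. A predicted gene, not named here, had the same adjusted p with positive sign (1.05). Ppard had 10.16 and 10.29 in LFD+As, 10.23 and 9.67 in LFD, 8.57 and 8.60 in HFD+As, and 10.40 and 9.78 in HFD livers. Its HFD+As pools lay more than 1 log2 unit below the rest, and the low-fat groups overlapped. Lbp, which binds lipopolysaccharide, differed between the diets by -1.54 (adjusted p = 0.0635), Saa1 by -4.39 and Bcl6, a transcriptional repressor, by -1.97 (both 0.103). Among the named genes, those with positive sign and the smallest p were Clec2h (1.39, adjusted p = 0.116), Socs2 (1.30), Akr1c19 (1.03), Phlda1 (0.83) and Gpcpd1 (0.77). The count of calls was 0 without LFD 1 and between 2 and 23 without any other single array, 23 of them without LFD+As 2.

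**Figure D5:**
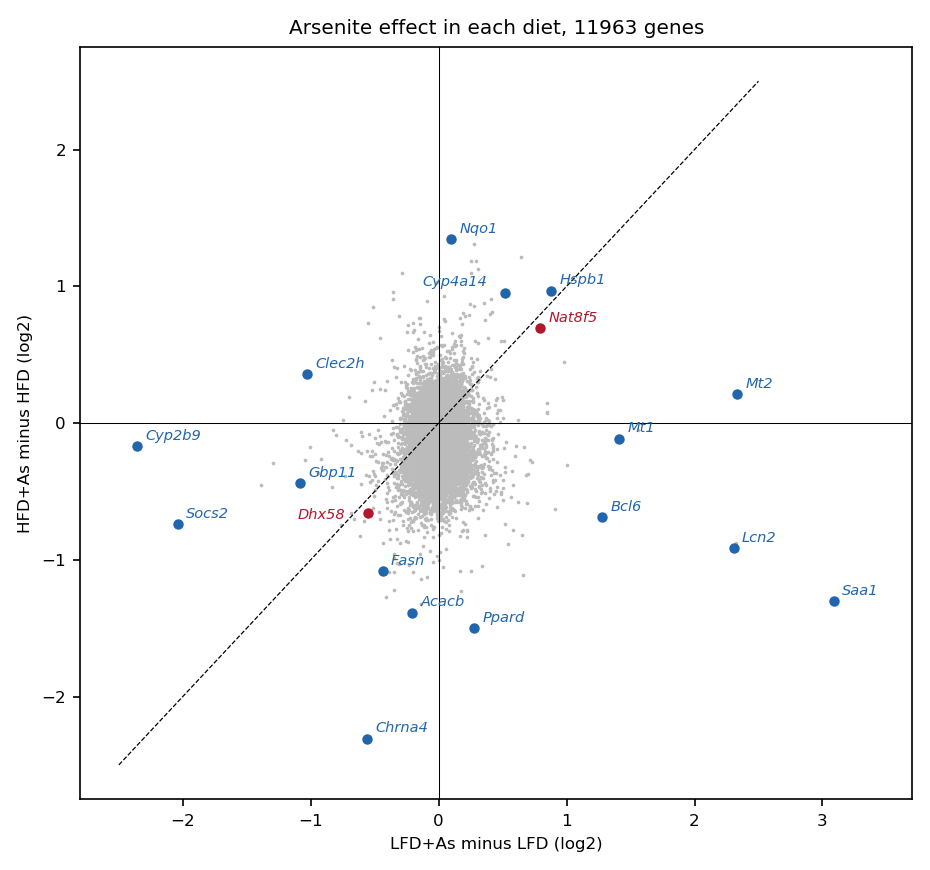
Arsenite effect on the low-fat diet (x axis, LFD+As minus LFD, log2) against that on the high-fat diet (y axis, HFD+As minus HFD, log2), with a point per tested gene and a dashed line of equal effect. Nat8f5 and Dhx58 (red) lie near the line at 0.79 and 0.69 and at -0.55 and -0.66, while Lcn2, Saa1, Mt2 and Socs2 lie far along the x axis and Chrna4 and Ppard far along the y axis.

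Genes near the axes of that plot show how an average over both diets can be carried by 1 of them. Chrna4, a nicotinic receptor subunit, had 9.20 and 10.21 in LFD+As, 10.18 and 10.35 in LFD, 7.68 and 7.85 in HFD+As, and 10.02 and 10.13 in HFD livers. It overlapped on the low-fat diet (-0.56) and differed by -2.31 on the high-fat diet (adjusted p = 0.0016, limma), and the average of -1.43 passed with 1 mean per group (0.00367) and not with diet as covariate (0.212). Camk1d, a calcium and calmodulin-dependent kinase, followed with -0.35 and -1.22. Derl3, of the machinery that removes misfolded proteins from the endoplasmic reticulum, differed by 0.93 ± 0.20 (SE, adjusted p = 0.212), with LFD+As 2 below LFD 2. Akr1c19, an aldo-keto reductase, differed by 0.28 and 1.31. The genes named for their place in a pathway or for their size within 1 diet (Acaca, Acly, Acss2, Acacb, Elovl5, Fads1, Mlxipl, Ddx58, Ifih1, Iigp1, Oasl2, Rsad2, Usp18, Irf7, Psmb6, Lcn2, Saa1, Lbp, Bcl6, Chrna4, Camk1d, Cyp4a10, Cyp4a31 and Derl3) were chosen after their values were seen.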

How the data were processed

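Liver RNA of 4 groups was measured on 8 Affymetrix gene arrays, 2 pools of 5 mice per group. The authors deposited log2 signals per transcript cluster, and the submitters' processing notes name Affymetrix Expression Console 1.0. How that software corrected background, normalized and summarized probes is not given in the sources used here, and the values were used as deposited, with no pseudocount. Symbols came from the platform annotation. Of 21789 clusters with 1 symbol, 21766 matched RefSeq (GRCm38.p6) and 0 symbols changed, while 1621 clusters with several symbols and 12146 with none were left out. The cluster with the highest mean stood for its gene (828 tested genes had several), and the 60% of genes with the highest means (above 6.97) were tested.

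Arsenite minus plain water was fitted with limma 3.58.1 (lmFit and eBayes, R 4.3.3) on all 8 arrays with diet as covariate, leaving 5 residual degrees of freedom plus 6.60 from the moderated variance. The median SE was 0.095, and the number of arrays limits the precision. A second fit with 1 mean per group (4 residual plus 9.32 prior degrees of freedom) gave the effects within each diet, their average and their difference. P-values were adjusted by Benjamini-Hochberg over 11963 genes at 0.05. The fit was tested on simulated data.

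Named genes were those past the threshold, the genes with the smallest p up to 8 in each direction, up to 2 per list, up to 5 in each direction for the difference between diets, and Mt1, Mt2, Hmox1, Nqo1, As3mt, Aqp9, Hspb1, Socs2 and Scd1. Predicted or unnamed genes were not named. The members and the gene lists were chosen with earlier results of these data known, and lists are described by counts and medians with no test. Promoters are RefSeq's. They were looked up for 119 genes, chosen by these rules or after their values were seen, and 87 had one. These are not exactly the genes described here. The interferon element was added to the motifs after the data were seen. Alternatives were the second fit, a replicate block, other filters and scalings, removal of each array's trend with gene span, other moderation settings, array weights, each diet alone, and leaving out each array.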

Additional observations from a re-analysis of the deposited data

How the results depend on the processing

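The count of 2 genes called for arsenite over both diets became 68 with 1 mean per group, 164 with array weights, 4 after quantile normalization, 4 with an intensity trend, 0 without a filter on dim genes, 0 with every cluster tested, 8 on the low-fat and 434 on the high-fat diet alone. With 1 array left out, where the lone array of a group is assumed to vary like the other groups, it ran from 0 to 49, and the count for the difference between the diets ran from 0 to 23. The replicate numbers are not known to pair samples, since deviations of same-numbered pools correlated at -0.212 for LFD with LFD+As and 0.040 for HFD with HFD+As. The replicate block gave 0 calls with limma and 1155 genes at an unadjusted p under 0.05, and 4 calls with the span trend removed. Among settings that kept all 8 arrays, the others with 0 calls had 1663 (no filter) and 1885 (every cluster) genes at an unadjusted p under 0.05 (limma). Median effects with 1 array left out ran from -0.66 to -0.43 for fatty acid synthesis, from -0.39 to -0.24 for interferon-stimulated genes and from 0.13 to 0.28 for proteasome subunits. The fatty acid synthesis median was -0.23 on the low-fat and -0.79 on the high-fat diet.

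On the low-fat diet alone, signs turned for Itih4 (0.0485), Fga (0.0479), Cd79b (-0.0265), Cd8a (-0.0434), Camp (-0.0641), Sox9 (0.100), Pparg (-0.0172), Lpl (0.0480) and As3mt (0.18). On the high-fat diet alone they turned for Mt1 (-0.11) and Hmox1 (-0.0181). As3mt also turned with the span trend removed, without and with the replicate block (0.0264). With 1 array left out As3mt ran from -0.156 to 0.0746, above 0 without HFD 2 or HFD+As 1, and Alas2 from -0.246 to 0.0170, above 0 without HFD+As 2. None of these genes passed over both diets, and the cause was not tested. With 2 pools per group and no detection calls, the median SE of 0.095 limits which effects can pass, and signal over background is unknown.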

Other observations

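Among the 68 genes called with 1 mean per group were Lpin1, Pank1, Npc1 and Fabp5, all 4 lower with arsenite and, like the genes of the next paragraph, chosen for mention after their values were seen. Lpin1, a phosphatidate phosphatase of triglyceride synthesis, had 8.93 and 9.69 in LFD+As, 9.62 and 9.62 in LFD, 8.54 and 8.78 in HFD+As, and 9.79 and 9.60 in HFD livers. Its low-fat groups overlapped, and its difference was -0.31 on the low-fat and -1.03 on the high-fat diet. Pank1, which starts coenzyme A synthesis, differed by -0.22 and -0.76, and Npc1, which exports cholesterol from lysosomes, by -0.18 and -0.69, both separate from plain water in each diet. Fabp5, a fatty acid binding protein, had 8.71 and 8.03 in HFD+As livers, against 9.63 and 9.75 in HFD livers, and differed by -0.14 on the low-fat and -1.32 on the high-fat diet.

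Of the same set, Arid5b, a transcriptional coregulator, differed by -0.76 on the low-fat and -0.75 on the high-fat diet. Fst, follistatin, which binds activin, differed by -0.50 and -0.37. Ddx60, an interferon-inducible helicase that was not in the interferon list, had 6.79 and 6.75 in LFD+As against 7.58 and 7.18 in LFD livers, and 6.90 and 6.97 in HFD+As against 7.53 and 7.22 in HFD livers. Its arsenite pools all lay below its plain-water pools (-0.53 over both diets, adjusted p = 0.0429 with 1 mean per group and 0.212 with diet as covariate, limma). The arsenite pools lay at or below the mean filter of 6.97, so Ddx60 was tested only through its brighter plain-water pools. On the higher side, Blvrb, biliverdin reductase B, differed by 0.24 and 0.79. None of these genes passed in the fit with diet as covariate.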
